A study of Mus musculus with 7 samples.

Results

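The data described single long-range VIP neurons of mouse CA1, divided by their transcript level of Chrm2, the gene of the M2 muscarinic acetylcholine receptor. The cells were selected on measured Chrm2 values. A cell counted as Chrm2-positive when its deposited TPM (the abundance of a transcript relative to its library, corrected for length), summed over the Chrm2 transcripts, was above 1. By this rule 4 of 7 cells were Chrm2-positive (cells 1, 3, 4 and 5) and 3 of 7 were Chrm2-negative (cells 2, 6 and 7). All 7 cells carry the same labels: untreated VIP-eGFP mice, in which a green fluorescent protein marks cells that express Vip, and stratum oriens/alveus of the hippocampal CA1 area. Each library is the aspirated content of 1 patch-clamped neuron, with cytoplasmic and nuclear RNA, kept because its axon was traced to the subiculum. No label gives an age, a sex or an animal for a cell, so cells could not be counted as separate animals. The division was made from the Chrm2 value itself and all cells share 1 labelled group, so no p-value was computed, and the differences describe these 7 cells.

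M2 is a G protein-coupled receptor for acetylcholine that couples to Gi and Go proteins. Their alpha subunits inhibit adenylyl cyclase, and the beta-gamma subunits they release open GIRK potassium channels and inhibit calcium channels. In the hippocampus M2 is found on sets of GABAergic interneurons and their terminals, where it lowers transmitter release, and on cholinergic terminals.

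The promoters of Chrm2 and of the first and second genes by separation between the groups, Lamp5 and Cabp1, are shown so that their start regions can be compared. They run from 250 bases before to 50 bases after a RefSeq transcript start on GRCm38.p6, 5′ to 3′ on the strand of the gene. Chrm2 is at chr6:36387834-36388133 on the plus strand, Lamp5 at chr2:136052089-136052388 on the plus strand and Cabp1 at chr5:115194332-115194631 on the minus strand. Capitals mark matches, on either strand, to TATAAA, the E-box CANNTG, the cyclic AMP response element TGACGTCA, the GC box GGGCGG, the CCAAT box and the homeodomain core TAATTA.
Chrm2: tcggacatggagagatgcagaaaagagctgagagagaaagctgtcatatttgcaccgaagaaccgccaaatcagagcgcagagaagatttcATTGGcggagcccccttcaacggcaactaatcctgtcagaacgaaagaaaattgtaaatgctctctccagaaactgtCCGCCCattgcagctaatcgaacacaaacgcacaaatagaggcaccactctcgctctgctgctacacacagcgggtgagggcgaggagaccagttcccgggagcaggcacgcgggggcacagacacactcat
Lamp5: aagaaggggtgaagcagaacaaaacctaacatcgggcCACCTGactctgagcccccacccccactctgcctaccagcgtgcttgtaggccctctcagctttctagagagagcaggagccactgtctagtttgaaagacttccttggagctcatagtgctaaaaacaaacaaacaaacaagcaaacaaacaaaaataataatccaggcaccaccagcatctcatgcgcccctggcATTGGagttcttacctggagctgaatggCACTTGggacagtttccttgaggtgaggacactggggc
Cabp1: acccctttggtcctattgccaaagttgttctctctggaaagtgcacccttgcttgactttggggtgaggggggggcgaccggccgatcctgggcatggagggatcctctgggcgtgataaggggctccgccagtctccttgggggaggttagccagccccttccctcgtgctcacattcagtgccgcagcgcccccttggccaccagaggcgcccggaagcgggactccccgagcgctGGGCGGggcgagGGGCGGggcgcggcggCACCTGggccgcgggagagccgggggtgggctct
The Chrm2 sequence held 1 CCAAT box and 1 GC box, the Lamp5 sequence 2 E-boxes and 1 CCAAT box, and the Cabp1 sequence 1 E-box and 2 GC boxes, so none of the 6 motifs was found in all 3 promoters. GC content was 52.7% for Chrm2, 50.7% for Lamp5 and 69.3% for Cabp1.

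**Figure D1:**
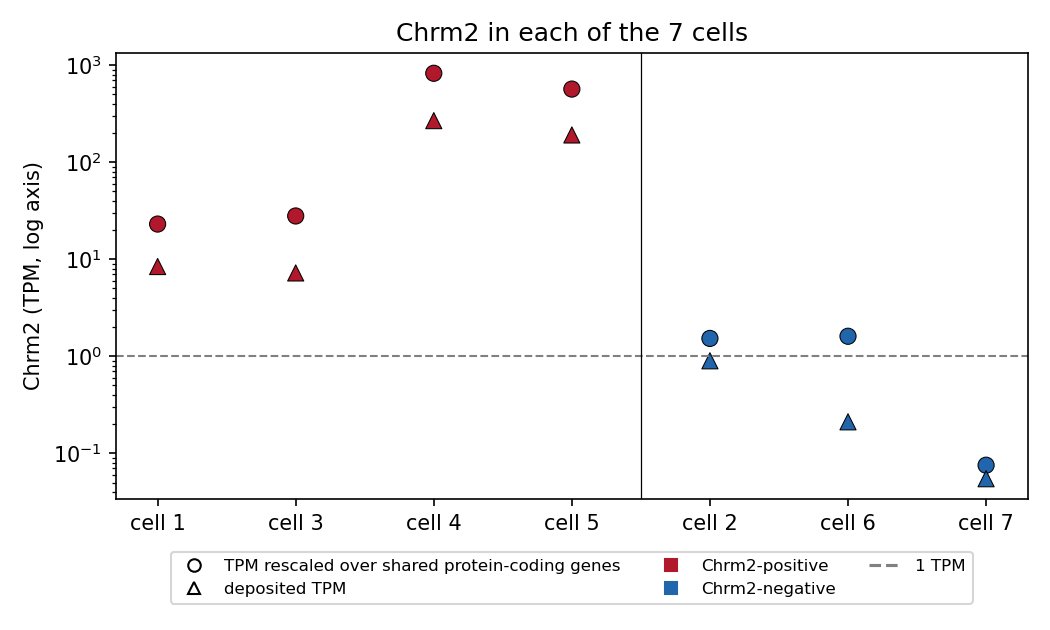
Chrm2 level in each cell on a log axis, Chrm2-positive cells left of the vertical line and Chrm2-negative cells right of it. Triangles are deposited TPM, circles are TPM rescaled over protein-coding genes and the dashed line is 1 TPM; cells 4 and 5 lie far above cells 1 and 3, and the circles of cells 2 and 6 lie above the line.

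Chrm2 chose the groups, so its values are given as a description. Deposited Chrm2 was at 8.41, 7.23, 268 and 191 TPM in Chrm2-positive cells 1, 3, 4 and 5, against 0.898, 0.211 and 0.0547 TPM in Chrm2-negative cells 2, 6 and 7. The nearest cells to the threshold were cell 3 inside it, at 7.23 TPM, and cell 2 outside it, at 0.898 TPM. These values rested on 83, 41, 1330 and 1691 estimated counts in the Chrm2-positive cells, against 11, 4 and 1 in the Chrm2-negative cells. The Chrm2-positive set was therefore uneven, with cells 4 and 5 more than an order of magnitude above cells 1 and 3. The Chrm2-negative cells were not all without reads, since cells 2 and 6 exceeded the 3 counts taken here as the limit of a count of 0. Rescaled to shared protein-coding genes, Chrm2 was at 23.1, 27.9, 826 and 567 TPM in the Chrm2-positive cells, against 1.53, 1.61 and 0.0754 TPM in the Chrm2-negative cells. On that scale 6 of 7 cells would pass the threshold of 1.

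On mm10, Chrm2 lies on chromosome 6 (36388084 to 36528414, plus strand). The RefSeq tables of cells 1 to 6 list a Chrm2 transcript of 5536 bases and a shorter one of 2036 bases. The longer transcript took 100%, 6.73%, 30.6% and 45.5% of Chrm2 TPM in cells 1, 3, 4 and 5, against 100% in cells 2 and 6. The shorter transcript was thus assigned reads in Chrm2-positive cells 3, 4 and 5 alone among these 6 cells. Exons of Chrm2 overlap 9330158H04Rik on the opposite strand, and the SMART-Seq v4 kit keeps no strand, so reads of the overlap cannot be told apart.

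Depth differed between the libraries. Total estimated counts were 1052327 to 2125424 in the Chrm2-positive cells and 1110597 to 3398521 in the Chrm2-negative cells. The table of cell 7 was made on an Ensembl index and those of cells 1 to 6 on a RefSeq index, so TPM values were normalised separately and every level set across cells carries that limit. Shared protein-coding genes took 25.9% to 36.5% of TPM in the Chrm2-positive cells, against 58.8%, 13.1% and 72.6% in cells 2, 6 and 7. All levels below are therefore TPM rescaled to a common total over 20807 shared protein-coding genes without the mitochondrially encoded ones. After thinning to 700273 counts, 4402, 6969, 5702 and 8131 of these genes had at least 1 count in cells 1, 3, 4 and 5, against 8801, 5567 and 4087 in cells 2, 6 and 7. In the order of genes found, each group thus held both rich and poor libraries.

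The identity markers matched the label in part. Vip transcripts were found in all 7 cells, and so were those of Gad1, which encodes a GABA-synthesising enzyme. Gad1 was at 1342, 709, 101 and 332 TPM in cells 1, 3, 4 and 5, against 686, 73.1 and 187 TPM in cells 2, 6 and 7. Slc32a1, the vesicular GABA transporter gene, was at 18.1, 25, 28.3 and 22.4 TPM in the Chrm2-positive cells, against 25.1, 0 and 0 TPM in the Chrm2-negative cells. Gad2, the gene of the second GABA-synthesising enzyme, was at 239, 209, 260 and 296 TPM in the Chrm2-positive cells, against 275, 162 and 0.301 TPM in the Chrm2-negative cells. Both GABAergic genes were thus near or at 0 in cell 7.

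Differences across the transcriptome were read as gaps on log2(rescaled TPM + 1), a scale that understates changes of low genes. A gene was called higher when its lowest Chrm2-positive cell lay at least 1 above its highest Chrm2-negative cell, and lower when the reverse gap was at least 1. The 8956 genes compared had to average 1 or more on this scale over the 7 cells, and Chrm2 was left out. Among them 41 were called higher (0.458%) and 59 lower (0.659%). A gap of any size separated 120 genes upward (1.34%) and 138 downward (1.54%), or 2.88% in all. The median difference over all 8956 genes was 0, with 4470 medians higher and 3527 lower in the Chrm2-positive cells. With many values at 0 and equal detection, the median of the larger group is more often above 0. Counts of medians, here and below, carry that limit. About 1 gene in 100 thus differed by this rule in either direction (1.12%), and many of the differences were between detected and absent. In 9 of the 41 higher genes every Chrm2-negative cell was listed at 0, and in 21 of the 59 lower genes every Chrm2-positive cell was. All Chrm2-negative cells were below 3 counts for 17 of the 41, and all Chrm2-positive cells were below 3 counts for 37 of the 59. Every Chrm2-positive cell held at least 10 counts for 30 of the 41, and every Chrm2-negative cell did so for 44 of the 59.

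**Figure D2:**
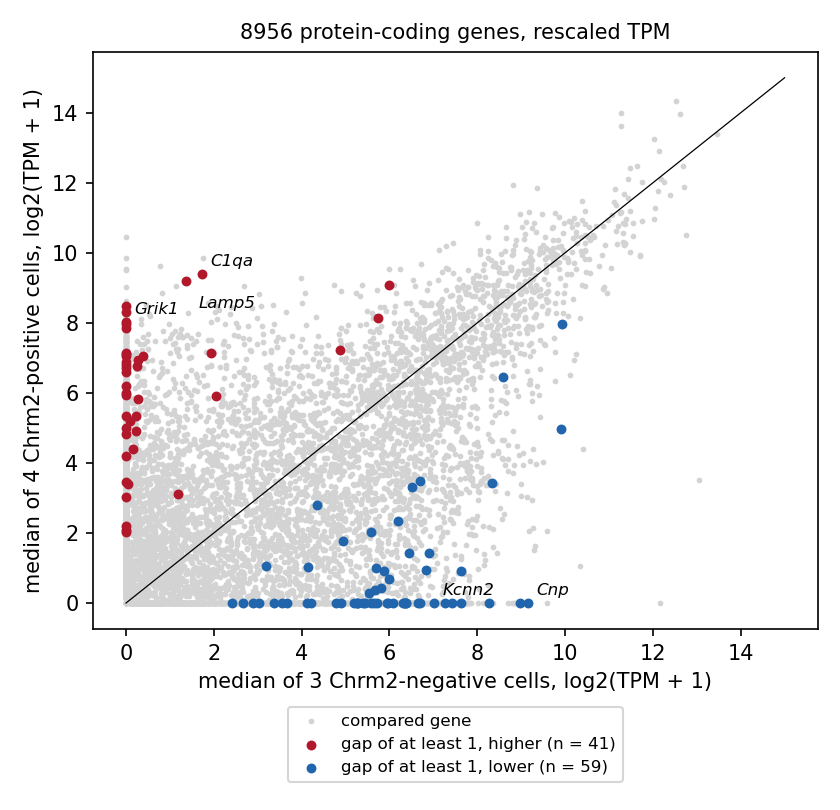
Median log2(rescaled TPM + 1) of the 4 Chrm2-positive cells (vertical) against the 3 Chrm2-negative cells (horizontal), 1 point per compared gene, with the diagonal of equal medians. Red points are the 41 genes called higher and blue points the 59 called lower; many of both sit on the axes, where a group's median is 0.

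Lamp5 was the gene with the widest separation. It encodes a lysosome-associated membrane protein of neurons and is a marker of neurogliaform-type interneurons. Lamp5 was at 559, 964, 625 and 501 TPM in cells 1, 3, 4 and 5, against 3.42, 0 and 1.58 TPM in cells 2, 6 and 7. Estimated Lamp5 counts were 676, 1110, 603 and 736 in the Chrm2-positive cells, against 9, 0 and 1 in the Chrm2-negative cells. All 4 Chrm2-positive cells were high and within a narrow range, and the nearest cells of the groups differed 147-fold, a gap of 6.83 on the log2 scale. Lamp5 did not follow the level of Chrm2 within the Chrm2-positive cells, being highest in cell 3, the cell nearest the threshold. Lamp5 lies on chromosome 2 (136052239 to 136069917, plus strand).

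The next genes also separated detected from nearly absent. Cabp1, which encodes a neuronal calcium sensor of the calmodulin superfamily, was at 113, 93.3, 150 and 95.4 TPM in cells 1, 3, 4 and 5, against 0.89, 0 and 0 TPM in cells 2, 6 and 7. Its Chrm2-negative values amounted to 1 count in all, and the gap was 5.64. Ttc9b, a gene for a tetratricopeptide repeat protein, was at 378, 214, 87.9 and 246 TPM in the Chrm2-positive cells, against 0.858, 0 and 0 TPM in the Chrm2-negative cells. Pigyl, a gene of glycosylphosphatidylinositol anchor synthesis, was at 123, 266, 1092 and 370 TPM in the Chrm2-positive cells, against 0, 3.97 and 0 TPM in the Chrm2-negative cells. In each of these genes the groups stood apart by at least 4.64 on the log2 scale. Kcnab3, which encodes a beta subunit of voltage-gated potassium channels, was at 103, 222, 184 and 23.9 TPM in cells 1, 3, 4 and 5 and at 0 in cells 2, 6 and 7. Against a floor of 3 counts per library, the lowest Chrm2-positive cell had at least 8.44-fold higher Kcnab3 than the Chrm2-negative cells. Whether Pigyl shares reads with the related gene Pigy was not tested.

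An axon guidance gene, Sema6d, encodes a transmembrane semaphorin. It was at 92.3, 32.3, 80.1 and 64.6 TPM in the Chrm2-positive cells, against 0, 1.2 and 0 TPM in the Chrm2-negative cells. The lowest Chrm2-positive cell was 26.9-fold above cell 6, whose value was 3 counts. Trank1, a large gene with tetratricopeptide and ankyrin repeats, was at 60.9, 33.6, 50.6 and 66.6 TPM in the Chrm2-positive cells, against 1.88, 0.216 and 0.218 TPM in the Chrm2-negative cells. Its nearest cells differed 17.9-fold, and it had reads in all 7 libraries. Emc7, a subunit gene of the endoplasmic reticulum membrane complex, was at 1233, 45.4, 98.1 and 153 TPM in the Chrm2-positive cells, against 3.25, 0 and 0.215 TPM in the Chrm2-negative cells. Ube2r2, a ubiquitin-conjugating enzyme gene, was at 404, 49.4, 48.7 and 72.7 TPM in the Chrm2-positive cells, against 4.03, 0 and 0 TPM in the Chrm2-negative cells. Cell 1 stood highest of the 4 for both Emc7 and Ube2r2.

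The last of the 12 genes with the widest gaps were Mkrn2, Tex264 and Thrap3. Mkrn2, a ubiquitin ligase gene, was at 161, 8.87, 200 and 86.4 TPM in cells 1, 3, 4 and 5 and at 0 in the Chrm2-negative cells. Tex264, a receptor gene for autophagy of the endoplasmic reticulum, was at 311, 245, 255 and 8.33 TPM in the Chrm2-positive cells and at 0 in the Chrm2-negative cells. The low cells, 3 for Mkrn2 and 5 for Tex264, held 8 and 7 counts, so the smallest folds were at least 2.53 and at least 1.45. Thrap3, a gene of RNA splicing and transcription, was at 15.7, 68.1, 72.5 and 22.8 TPM in the Chrm2-positive cells, against 1.06, 0 and 0.176 TPM in the Chrm2-negative cells. Exons of 4 of the 12 genes (Ttc9b, Kcnab3, Emc7 and Mkrn2) overlap a gene on the opposite strand, so their values may include reads of that partner.

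**Figure D3:**
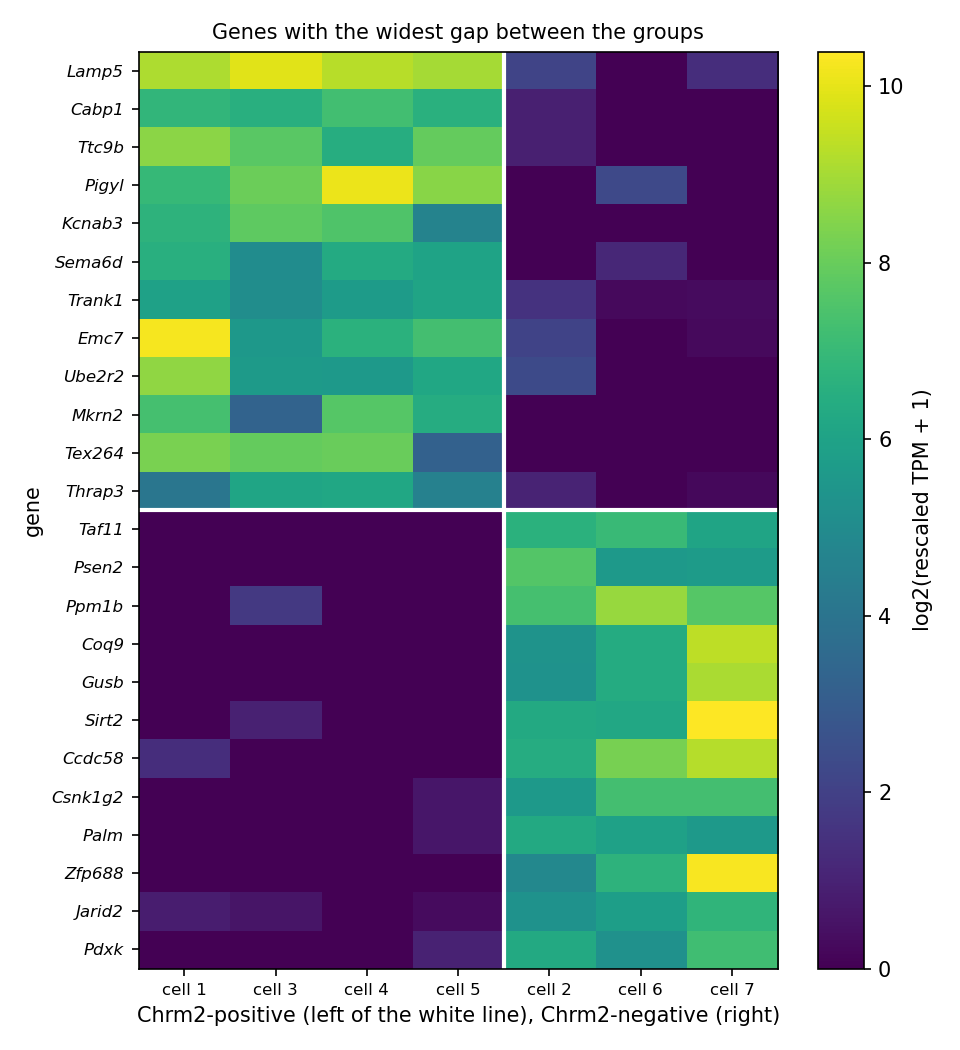
Log2(rescaled TPM + 1) of the 12 genes with the widest gap upward (upper block) and the 12 with the widest gap downward (lower block), 1 column per cell and Chrm2-positive cells left of the white line. The upper block is bright in cells 1, 3, 4 and 5 and dark in cells 2, 6 and 7, and the lower block is the reverse, a pattern the gap rule itself fixes.

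Genes lower in the Chrm2-positive cells were led by Taf11, a subunit gene of the general transcription factor TFIID. Taf11 was at 0 in all 4 Chrm2-positive cells, against 99.5, 129 and 65.4 TPM in cells 2, 6 and 7. In those 4 cells 3 counts would give 3.25 to 5.11 TPM. Set against that floor, the highest possible Chrm2-positive level was at least 12.8-fold lower than the lowest Chrm2-negative one. Psen2, the presenilin 2 gene of the gamma-secretase protease, was at 0 in the Chrm2-positive cells, against 195, 48.8 and 51.6 TPM in the Chrm2-negative cells. It was at least 12.6-fold lower between the nearest cells. Ppm1b, a protein phosphatase gene, was at 0, 2.31, 0 and 0 TPM in the Chrm2-positive cells, against 158, 438 and 198 TPM in the Chrm2-negative cells. Its 5 counts in cell 3 were the only Ppm1b reads of the Chrm2-positive cells, and the nearest cells differed 68.5-fold.

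Coq9, Gusb and Sirt2 were low in the Chrm2-positive cells and by far highest in cell 7. Coq9, a gene of coenzyme Q synthesis, was at 0 in the Chrm2-positive cells, against 39.5, 82.7 and 648 TPM in cells 2, 6 and 7. Gusb, the lysosomal beta-glucuronidase gene, was at 0 in the Chrm2-positive cells, against 37.8, 82.6 and 542 TPM in the Chrm2-negative cells. Between the nearest cells, Coq9 was at least 11.1-fold and Gusb at least 11.3-fold lower. Sirt2, a deacetylase gene that is also abundant in oligodendrocytes, was at 0, 0.961, 0 and 0 TPM in the Chrm2-positive cells, against 77.9, 73.3 and 1342 TPM in the Chrm2-negative cells. Cell 7 also had the highest summed oligodendrocyte markers, given below, and their part in the Sirt2 value was not tested. Zfp688, a zinc finger gene, had a like profile, with 0 in the Chrm2-positive cells, against 28.2, 103 and 1257 TPM in the Chrm2-negative cells.

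The other genes of the 12 were more even among the Chrm2-negative cells than Coq9, Gusb, Sirt2 and Zfp688 were. Ccdc58, a coiled-coil protein gene, was at 1.59, 0, 0 and 0 TPM in the Chrm2-positive cells, against 85.5, 307 and 599 TPM in the Chrm2-negative cells. Csnk1g2, a casein kinase gene, was at 0, 0, 0 and 0.554 TPM in the Chrm2-positive cells, against 47.3, 154 and 153 TPM in the Chrm2-negative cells. Palm, the gene of the membrane protein paralemmin, was at 0, 0, 0 and 0.56 TPM in the Chrm2-positive cells, against 78.5, 61.1 and 47 TPM in the Chrm2-negative cells. Each of these Chrm2-positive values above 0 was 1 count. Jarid2, a partner gene of Polycomb repressive complex 2, was at 0.767, 0.494, 0 and 0.22 TPM in the Chrm2-positive cells, against 38.1, 55.4 and 110 TPM in the Chrm2-negative cells. Pdxk, the gene of the vitamin B6 kinase, was at 0, 0, 0 and 0.969 TPM in the Chrm2-positive cells, against 79.1, 37.7 and 148 TPM in the Chrm2-negative cells. For Pdxk the nearest cells differed 38.8-fold. Opposite-strand exon overlaps were present for Taf11, Coq9, Sirt2 and Pdxk.

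Detection was read from the same values as the gaps, so it is not separate evidence. Of 20806 shared genes other than Chrm2, 20 were above 1 deposited TPM in exactly the cells where Chrm2 was (0.0961%). The opposite set, above 1 deposited TPM in exactly the Chrm2-negative cells, held 39 genes (0.187%). Both are small shares of the genes, so following the Chrm2 pattern exactly was rare. All 20 were also among the 41 genes called higher. The 10 of the 20 with the highest mean level were Pigyl, Ttc9b, Pink1, Cabp1, Tex264, Grik1, Kcnab3, Sema6d, Mkrn2 and Nxph1. Lamp5 was not among the 20, because it passed 1 deposited TPM in cells 2 and 7 as well, at 2.01 and 1.15 TPM.

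Grik1 encodes the GluK1 kainate receptor subunit, which forms glutamate-gated channels. It was at 3.14, 201, 333 and 347 TPM in cells 1, 3, 4 and 5, against 0, 0 and 0.174 TPM in cells 2, 6 and 7. Estimated Grik1 counts were 7, 483, 621 and 1022 in the Chrm2-positive cells, against 0, 0 and 1 in the Chrm2-negative cells, so cell 1 lay near the Chrm2-negative cells and the other 3 far above. Like Chrm2, Grik1 was highest in cells 4 and 5. Pink1, a kinase gene of mitochondrial quality control, was at 122, 264, 142 and 17.9 TPM in the Chrm2-positive cells, against 0, 4.88 and 0.304 TPM in the Chrm2-negative cells. Nxph1, the gene of a secreted ligand of alpha-neurexins, was at 12, 165, 22.5 and 68.8 TPM in the Chrm2-positive cells, against 0, 5.3 and 0 TPM in the Chrm2-negative cells. Cell 6 held 35 estimated counts of Nxph1, so this gene was not absent there. Grik1 lies on chromosome 16 (87895900 to 88290265, minus strand).

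Of the 37 gene lists, 563 genes were in the tables and 420 among the compared genes. Called higher were 3 of the 420 (Lamp5, Grik1 and the microglial gene C1qa) and lower 2 (Kcnn2 and the myelin gene Cnp), from 5 different lists. These shares lie near those of all compared genes, 0.458% and 0.659%. Kcnn2, the gene of the SK2 calcium-activated potassium channel, was at 0 in the Chrm2-positive cells, against 182, 1.14 and 128 TPM in the Chrm2-negative cells. Cell 6 held 1 count of it, so Kcnn2 was high in cells 2 and 7 alone. Of the 23 potassium and HCN channel genes of the list 17 were compared, and Kcnn2 was the one called. In deposited TPM the gaps of Lamp5 and Cnp were still above 1, at 5.82 and 1.66, and those of Grik1, C1qa and Kcnn2 were not, at 0.93, 0.48 and 0.20.

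**Figure D4:**
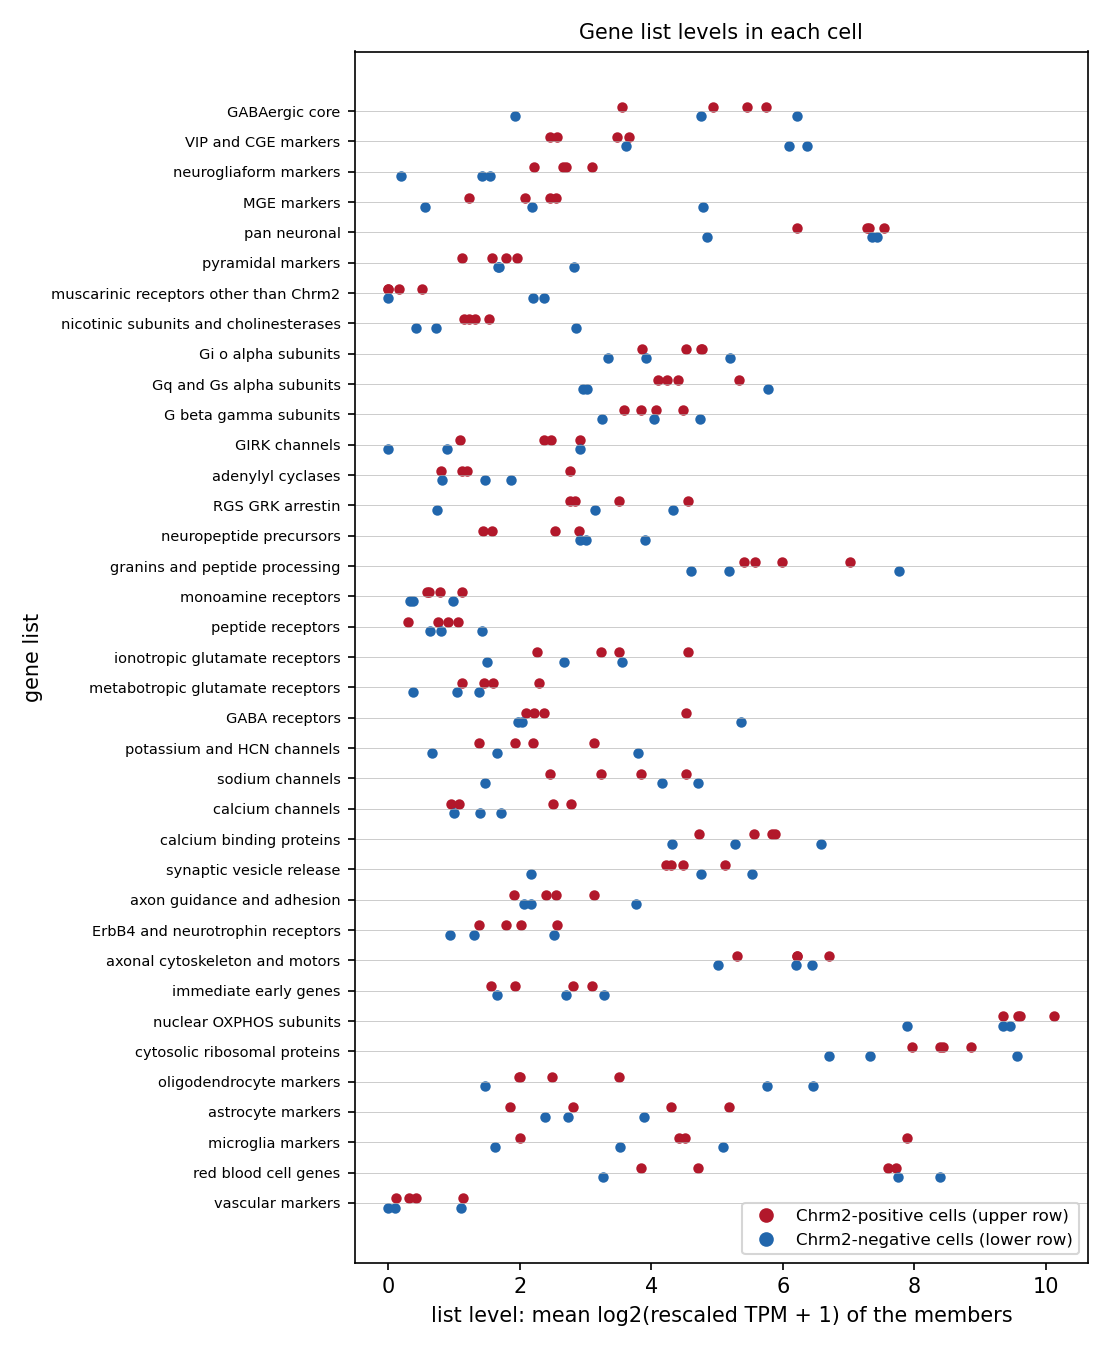
List level, the mean log2(rescaled TPM + 1) of the members, for the 37 gene lists, with the 4 Chrm2-positive cells as red points above the 3 Chrm2-negative cells as blue points. The groups are apart for the neurogliaform markers (red to the right) and narrowly for the neuropeptide precursors (blue to the right), and overlap in the other lists.

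Most list levels overlapped between the groups. The neurogliaform list stood at 2.65, 3.09, 2.70 and 2.22 in cells 1, 3, 4 and 5, against 1.54, 1.42 and 0.19 in cells 2, 6 and 7. Among its 8 genes 4 were compared, and Lamp5 was the one called. All 4 compared members had higher medians in the Chrm2-positive cells, but the groups overlapped for Id2, Sema5a and Ndnf. The median difference of 4.27 on the log2 scale, against 0 over all compared genes, was set by Id2 and Sema5a. Without Lamp5 the list stood at 1.72, 2.12, 1.76 and 1.25 in the Chrm2-positive cells, against 1.45, 1.63 and 0.03 in the Chrm2-negative cells, and the groups overlapped. Id2, a transcriptional regulator gene on the same list, was at 882, 159, 367 and 0 TPM in the Chrm2-positive cells, against 447, 7.59 and 0 TPM in the Chrm2-negative cells. Reln, Kit and Cplx3 were at 0 in all 4 Chrm2-positive cells and were not among the genes compared.

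Genes of the VIP and caudal ganglionic eminence class pointed the other way without separating. The list stood at 2.46, 3.48, 2.56 and 3.66 in cells 1, 3, 4 and 5, against 6.36, 3.61 and 6.10 in cells 2, 6 and 7. Of its 10 compared members, 8 had lower and 1 had a higher median in the Chrm2-positive cells, with a median difference of -2.42. Vip itself was at 1859, 1248, 77.9 and 1715 TPM in the Chrm2-positive cells, against 7309, 2431 and 6897 TPM in the Chrm2-negative cells. These Vip values did not overlap, by a gap of 0.39. In deposited TPM they did, at 678, 323, 25.3 and 578 in the Chrm2-positive cells, against 4299.6, 319 and 5006 in the Chrm2-negative cells.

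Cck, the cholecystokinin gene, was at 0, 158, 0 and 131 TPM in cells 1, 3, 4 and 5, against 15003, 19.3 and 8476 TPM in cells 2, 6 and 7. Tac2, the neurokinin B gene, was at 0, 2.63, 0 and 0 TPM in the Chrm2-positive cells, against 4590, 0 and 6586 TPM in the Chrm2-negative cells. Cnr1, the cannabinoid receptor gene, was at 204, 133, 80.1 and 156 TPM in the Chrm2-positive cells, against 1831, 3.36 and 878 TPM in the Chrm2-negative cells. Each of these genes was high in cells 2 and 7, and cell 6 resembled the Chrm2-positive cells or lay below them. Adarb2, an RNA-editing family gene, overlapped as well, at 286, 113, 34.3 and 158 TPM in the Chrm2-positive cells, against 534, 76.9 and 392 TPM in the Chrm2-negative cells. The Chrm2-negative cells were thus not alike in this class. The list of neuropeptide precursors, which shares Vip, Cck and Tac2, stood at 2.54, 1.57, 1.44 and 2.90 in the Chrm2-positive cells, against 3.01, 2.91 and 3.91 in the Chrm2-negative cells. Its groups overlapped on the deposited scale.

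The other muscarinic receptor genes were compared next, with cell 7 at 0 for each. Chrm3, the Gq-coupled M3 receptor gene, was at 0 in the 4 Chrm2-positive cells, against 19.4, 52 and 0 TPM in cells 2, 6 and 7. Chrm1, the M1 receptor gene, was at 0, 0, 0 and 3.17 TPM in the Chrm2-positive cells, against 33, 1.79 and 0 TPM in the Chrm2-negative cells. Chrm4, the Gi-coupled M4 receptor gene, had no more than 2.5 counts in any cell. Chrm3 was thus read in Chrm2-negative cells 2 and 6 alone, while in cell 7 no muscarinic gene exceeded 1 count. Chrm1 did not follow the groups, with 16.4 estimated counts in Chrm2-positive cell 5, against 5 in cell 6. Acetylcholinesterase, Ache, which ends the cholinergic signal, was at 5.06, 2.09, 188 and 242 TPM in the Chrm2-positive cells, against 542, 9.38 and 20.4 TPM in the Chrm2-negative cells.

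Downstream of M2, Gnao1, the Go alpha subunit gene, was the one of 5 Gi/o alpha genes whose groups did not overlap. It was at 320, 190, 245 and 343 TPM in cells 1, 3, 4 and 5, against 160, 6.91 and 0 TPM in cells 2, 6 and 7, with a gap of 0.25. Cell 2 lay close below the Chrm2-positive range, and in deposited TPM the groups overlapped. Gnao1 was not called, and 1.34% of all compared genes separated upward by a gap of any size. Gnai2, a Gi alpha subunit gene, was at 576, 275, 19.9 and 138 TPM in the Chrm2-positive cells, against 177, 24.5 and 253 TPM in the Chrm2-negative cells. Gnai3, another Gi alpha gene, had reads in cell 6 alone, at 399 TPM. The list of 5 Gi/o alpha genes overlapped, at 3.86 to 4.77 in the Chrm2-positive cells and 3.35 to 5.20 in the Chrm2-negative cells.

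Among the GIRK channel genes, Kcnj3 was at 81, 1.33, 19.2 and 45.7 TPM in the Chrm2-positive cells, against 85.3, 11 and 0 TPM in the Chrm2-negative cells. Kcnj9 was at 10.6, 17.1, 0 and 3.37 TPM in the Chrm2-positive cells, against 0.48, 0 and 0 TPM in the Chrm2-negative cells, and Chrm2-positive cell 4 lacked it. Kcnj6 was read in cell 3 at 44.1 TPM and in cell 2 at 24 TPM, and in no other cell. No GIRK gene followed the groups, and cell 7 had none of the 4. Rgs4, a gene that shortens Gi/o signalling, was at 284, 301, 1635 and 479 TPM in the Chrm2-positive cells, against 2.67, 829 and 0.334 TPM in the Chrm2-negative cells. Cell 6 lay inside the Chrm2-positive range of Rgs4, and cells 2 and 7 far below it.

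**Figure D5:**
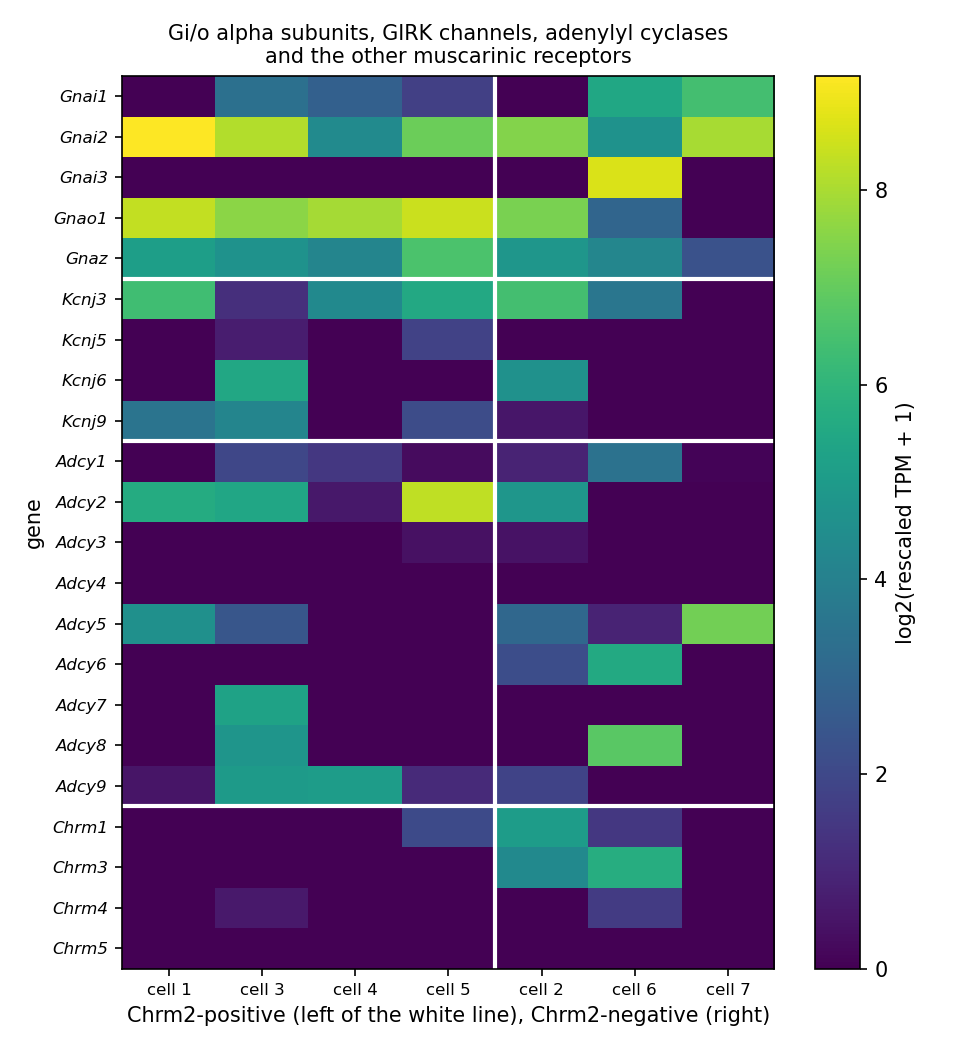
Log2(rescaled TPM + 1) of the Gi/o alpha subunit genes, the GIRK channel genes, the adenylyl cyclase genes and the other muscarinic receptor genes, from the top block down, 1 column per cell and Chrm2-positive cells left of the white line. Gnao1 is bright in cells 1, 3, 4 and 5 and in cell 2, Chrm3 is bright in cells 2 and 6 alone, and Chrm1 is brightest in cell 2, followed by Chrm2-positive cell 5 and then cell 6.

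Receptor lists showed few further differences. Gria1, an AMPA receptor subunit gene, was at 86.1, 181, 143 and 175 TPM in cells 1, 3, 4 and 5, against 73.2, 9.82 and 1.41 TPM in cells 2, 6 and 7, with a gap of 0.23. In deposited TPM the groups overlapped for Gria1, with cell 1 below cell 2. Htr1d, a Gi-coupled serotonin receptor gene, was at 1.51, 11, 0.613 and 4.36 TPM in the Chrm2-positive cells, against 0, 0 and 0.212 TPM in the Chrm2-negative cells. Its values rested on 1 to 22.8 estimated counts in the Chrm2-positive cells. Adrb1, the beta-1 adrenergic receptor gene, had reads in Chrm2-positive cells alone, at 492, 0, 83.1 and 31 TPM, and cell 3 lacked it. Grid1, the gene of the glutamate receptor delta 1, was at 0, 0.457, 2.24 and 0 TPM in the Chrm2-positive cells, against 11.8, 9.87 and 4.22 TPM in the Chrm2-negative cells.

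Markers of other cells were present in both groups. Summed oligodendrocyte markers were at 437 to 3830 TPM in the Chrm2-positive cells and 295 to 29022 TPM in the Chrm2-negative cells, the highest being cell 7. Among them Cnp, a myelin enzyme gene, was called lower, at 0, 0.702, 0 and 0 TPM in the Chrm2-positive cells, against 4.67, 566 and 1042 TPM in the Chrm2-negative cells. Cell 2 held 6 counts of Cnp. Of the 11 markers, 3 were at 0 in all Chrm2-positive cells and 1 in all Chrm2-negative cells. Of the 9 compared, 4 had higher and 4 had lower medians in the Chrm2-positive cells. Mobp, another myelin gene, overlapped, at 1447, 0, 0 and 923 TPM in the Chrm2-positive cells, against 2.25, 3.67 and 2227 TPM in the Chrm2-negative cells. Summed microglial markers were at 401 to 6230 TPM in the Chrm2-positive cells and 155 to 3462 TPM in the Chrm2-negative cells. C1qa, a complement gene of microglia, was at 616, 1557, 156 and 733 TPM in the Chrm2-positive cells, against 61.7, 2.32 and 0 TPM in the Chrm2-negative cells. The other microglial markers overlapped, among them C1qb, at 1533, 1026, 2.02 and 841 TPM in the Chrm2-positive cells, against 110, 2.37 and 0.465 TPM in the Chrm2-negative cells. Summed astrocyte markers were at 470 to 10261 TPM in the Chrm2-positive cells and 699 to 5020 TPM in the Chrm2-negative cells, with Gfap at 0 in all 7. Their part in the genes called was not tested.

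Similarity within the groups overlapped that between them. Over the 8956 genes, the Spearman correlation across genes had a median of 0.265 within the Chrm2-positive cells (6 pairs, 0.188 to 0.286) and 0.213 within the Chrm2-negative cells (3 pairs, 0.167 to 0.224). Between the groups it was 0.237 (12 pairs, 0.159 to 0.337), and the highest single pair was thus one across groups. Without cell 7 the median between the groups was 0.272 (8 pairs), above the 0.265 within the Chrm2-positive cells, so the order of the medians changed with that cell. Genes are not independent replicates, and the cells differ in depth and index, so these are descriptions.

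The comparison was repeated without cell 7, whose index differs. Of 9318 genes then compared, 65 were higher (0.698%) and 344 lower (3.69%) in the Chrm2-positive cells. All 41 genes called higher with 7 cells were called again, and 58 of the 59 lower ones, the exception being Dnajc28, whose mean level no longer passed the filter. Leaving out a cell cannot narrow a gap, so apart from the filter this return was fixed in advance. Newly called were 24 genes higher and 286 lower. With cell 7 left out, the Chrm2-negative side held 2 cells, which makes a gap easier to reach. Rpl7, a ribosomal protein gene, headed the new genes with Taf13, a TFIID subunit gene. Rpl7 was at 270, 1126, 700 and 402 TPM in cells 1, 3, 4 and 5, against 0, 5.48 and 1232 TPM in cells 2, 6 and 7. Ier3, an immediate early gene, led the new lower genes, at 0 in the Chrm2-positive cells, against 293, 491 and 0 TPM in cells 2, 6 and 7. Cell 7 thus sided with the Chrm2-positive cells for both.

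Among lists, those without overlap in cells 1 to 6 were 2 higher and 3 lower. The other muscarinic receptors were among the lower ones, with list levels of 0 to 0.51 in the Chrm2-positive cells and 2.20 to 2.36 in cells 2 and 6. The neurogliaform list stayed apart, at 2.22 to 3.09 in the Chrm2-positive cells, against 1.42 to 1.54 in cells 2 and 6. Without Lamp5 it overlapped here too, at 1.25 to 2.12 in the Chrm2-positive cells, against 1.45 and 1.63 in cells 2 and 6. Leaving out a cell cannot narrow a gap between list levels, so its return and that of the neuropeptide precursors were fixed in advance. The neuropeptide precursors were again narrowly lower, at 1.44 to 2.90 in the Chrm2-positive cells, against 2.91 to 3.01 in cells 2 and 6. Vascular markers were higher and red blood cell genes lower, also by narrow margins.

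Promoters of the genes called were described by the same 6 motifs, searched on both strands in the 300 bases of each promoter in the RefSeq table. Matched were 29 of the 41 higher genes, 46 of the 59 lower genes and 6978 of the 8956 compared genes. A motif counted for a gene when any of its promoters held it, so genes with more transcript starts had more chances. A GC box was found for 79.3% of the higher, 63.0% of the lower and 70.0% of the compared genes matched. The E-box was found for 62.1% of the higher, 76.1% of the lower and 67.1% of the compared genes. For TGACGTCA the shares were 3.45% of the higher, 13.0% of the lower and 3.97% of the compared genes, which is 1 of 29 and 6 of 46 genes in the called sets. The CCAAT box, present in the Chrm2 and Lamp5 promoters printed above, was found for 48.3% of the higher, 41.3% of the lower and 42.7% of the compared genes. TATAAA was found for 6.90% of the higher, 10.9% of the lower and 8.38% of the compared genes, and TAATTA for none of the higher, 2.17% of the lower and 3.11% of the compared genes. A match is a string of letters and does not show that a factor binds.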

How the data were processed

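The authors deposited 1 table per cell, with an estimated count and a TPM for each transcript, per the file headers. STAR 2.5.2a, kallisto and mm10 are named in the submitters' processing notes. What each tool was used for, and the annotation release, were not given in the sources used here. Transcript identifiers show a RefSeq index for cells 1 to 6 (107278 transcripts, 107277 in cell 6) and an Ensembl index for cell 7 (88197).

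TPM and estimated counts were summed by gene symbol. Date-like or missing symbols were replaced through the accession where possible (122 of 157 per RefSeq table, 81 of 1210 in cell 7). Unnamed entries, dropped here, held up to 0.0362% of TPM per RefSeq table and 0.482% in cell 7. TPM was then rescaled over 20807 shared protein-coding genes, with a pseudocount of 1 and a minimum mean log2 value of 1. Floors use 3 counts and cover counting error only, since no molecular identifiers were used. Estimated counts per library were 1052327 to 3398521.

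The samples share 1 labelled group and no animal is named, so no test was run. The members and gene lists were chosen with earlier results of these data known. The rule for named genes takes the 12 genes with the widest gap in each direction, members of each of 37 lists that were called or had the highest mean (up to 4 a list), and the 10 leading genes detected in exactly the cells where Chrm2 was. Many list members that this rule takes are not reported by name here and entered only the counts and levels of their lists. Other list members, the genes new without cell 7 and the neurogliaform list without Lamp5 were chosen after their values were seen. On simulated data with genes set far apart between the same groups, the gap rule was checked. Those data held counting error alone, so the check does not show how the rule performs on cells that vary like these. Gene positions are from GENCODE M21 on mm10 and promoters from RefSeq on GRCm38.p6. Python 3.11.15, pandas 2.3.3, numpy 2.4.6, scipy 1.17.1 and matplotlib 3.10.9 were used.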

Additional observations from a re-analysis of the deposited data

Results flagged for a closer look

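Values appear here because a single cell stood off from the rest by a large part of the range of log2 values. The criterion was applied within the 4 Chrm2-positive cells, where 7 of 25 genes met it, and over all 7 cells, where 27 of 203 values did. The limit is the tabulated one of Dixon's test, set so that chance meets it in about 1 in 20 sets of normally distributed values, and the rate for values like these was not tested.

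Within the Chrm2-positive cells, cell 5 was low for Tex264 (8.33 TPM). The other 6 genes are at 0 in the remaining Chrm2-positive cells, so a few counts set them apart. They were Ppm1b (2.31 TPM) and Sirt2 (0.961 TPM) in cell 3, Ccdc58 (1.59 TPM) in cell 1, and Csnk1g2 (0.554 TPM), Palm (0.56 TPM) and Pdxk (0.97 TPM) in cell 5.

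Over all cells, Chrm2-positive cell 4 was low for Vip (77.9 TPM) and high for the vascular gene Vtn (12.5 TPM). Chrm2-positive cell 5 was high for the GIRK subunit gene Kcnj5 (2.47 TPM) and the metabotropic glutamate receptor gene Grm3 (22.8 TPM), and low for the microglial gene Ctss (0). Chrm2-positive cell 3 was high for the adrenergic receptor gene Adra1a (19.8 TPM), the glutamate receptor gene Grm4 (42.5 TPM) and the T-type calcium channel gene Cacna1g (82 TPM).

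Chrm2-negative cell 7 was low for Gad2 (0.301 TPM) and the AMPA receptor gene Gria4 (0). It was also low for the vesicle release genes Syt1 (9.91 TPM), Cplx1 (5.56 TPM) and Rab3a (1.23 TPM), the adhesion genes Nrxn3 (0.126 TPM) and Cntnap2 (0), and Jund (17.2 TPM). Its list levels were lowest for synaptic vesicle release (2.17) and for nuclear genes of oxidative phosphorylation (7.89), and the endothelial gene Pecam1 was high there (115 TPM). Chrm2-negative cell 2 was high for Chrm1 (33 TPM) and the neuropeptide Y receptor gene Npy1r (226 TPM), and low for Cox6a1 (1222 TPM) and Rps14 (459 TPM). Chrm2-negative cell 6 was high for Chrm4 (2.05 TPM) and low for the G protein gamma gene Gng10 (2.23 TPM), the secretory gene Scg5 (58.2 TPM) and the astrocyte gene Clu (0).

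The eGFP reporter, used in no comparison, had 92, 25, 178 and 475 estimated counts in Chrm2-positive cells 1, 3, 4 and 5, against 117 in Chrm2-negative cell 2. Each value exceeded the floor of 3 counts. For cells 6 and 7 the reporter is not listed.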

How the results depend on the processing

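The division rested on the threshold. The number of Chrm2-positive cells was 4 above 1 TPM, 7 above 0 TPM, 2 above 10 TPM and 6 above 1 rescaled TPM, and 4 with the highest transcript. Against 41 genes higher and 59 lower, deposited TPM gave 25 and 38, a pseudocount of 10 gave 21 and 31, any gap above 0 gave 120 and 138, and a gap of at least 2 gave 20 and 29. A minimum mean of 3 gave 23 lower genes. With Chrm2 above 10 TPM dividing the cells, 258 genes were higher, none of the 41 among them, and 19 lower, with 2 of the 59. Leaving out each cell gave 65 to 253 higher and 69 to 344 lower genes, with 39 to 41 of the 41 and 56 to 59 of the 59 among them. Without cell 2 the counts were 253 and 138, without cell 6 they were 101 and 224, and without cell 1 they were 162 and 69. Without cell 3 they were 87 and 104, without cell 4 they were 112 and 103, and without cell 5 they were 77 and 134. A smaller group makes a gap easier to reach, so counts rise by construction. Leaving out a cell cannot narrow a gap, so apart from the filter the return of the genes called was fixed in advance. A pseudocount of 0.1 (61 and 81), the highest transcript (44 and 64), thinned counts (61 and 67) and no filter on low values (41 and 60) stayed within 1.5 times. The genes called on thinned counts held 34 of the 41 higher genes and 50 of the 59 lower ones, so membership changed. For the called genes that the rule for named genes takes, 265 alternative values moved by less than the spread between cells and 125 by more. The other called genes were not followed in this way. On deposited TPM the median difference was 0.13 over the genes then compared and 0.032 over those compared on the rescaled scale, against 0 in rescaled TPM. No paired analysis was possible because all cells share 1 labelled group and their numbers only name them. With 1 cell per library, 4 and 3 cells per group and no animal named, whether other cells would show these gaps was not tested.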

Other observations

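Some genes outside the lists, chosen after their values were seen, also separated the groups. Sncg, the gamma-synuclein gene, which marks a class of cholecystokinin interneurons in mouse cortex, was at 0 in the 4 Chrm2-positive cells, against 7.53, 170 and 554 TPM in Chrm2-negative cells 2, 6 and 7. Its counts were 6, 48 and 898 in the Chrm2-negative cells. In the Chrm2-positive cells 3 counts would give 5.72 to 8.99 TPM of Sncg, so cell 2 was not apart from that floor. Fxyd6, a regulator gene of the sodium pump, was at 0, 0, 2.22 and 0 TPM in Chrm2-positive cells 1, 3, 4 and 5, against 505, 654 and 12.2 TPM in the Chrm2-negative cells. Fgf9, a growth factor gene, was at 0.944, 5.57, 0 and 0.328 TPM in the Chrm2-positive cells, against 93, 14.4 and 62.4 TPM in the Chrm2-negative cells. The growth factor receptor gene Fgfr1 was at 0 in the Chrm2-positive cells, against 16.7, 5.13 and 7.21 TPM in the Chrm2-negative cells. Higher in the Chrm2-positive cells was Prkcz, an atypical protein kinase C gene, at 113, 98.4, 105 and 119 TPM, against 48.2, 0 and 0.185 TPM in the Chrm2-negative cells. In deposited TPM the groups overlapped for Prkcz, with cell 3 below cell 2. Hif1a, the gene of a hypoxia-regulated transcription factor, was at 22, 20.2, 113 and 43.8 TPM in the Chrm2-positive cells, against 0, 2.85 and 0 TPM in the Chrm2-negative cells. The kinase gene Map3k12 was at 9.07, 211, 60.5 and 14 TPM in the Chrm2-positive cells, against 0, 1.06 and 0.179 TPM in the Chrm2-negative cells. Pde3a, which encodes a phosphodiesterase that breaks down cyclic AMP, had reads in the Chrm2-positive cells alone, at 36.2, 3.91, 1.54 and 23.3 TPM.

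Genes outside the shared protein-coding set could be set side by side in cells 1 to 6 alone, a comparison added after the data were seen. Of 1963 such genes, 4 were higher (0.204%) and 56 lower (2.85%) in the Chrm2-positive cells, with 2 Chrm2-negative cells on the other side. The small Y RNA Rny1 was at 8289, 2956, 3067 and 1499 TPM in Chrm2-positive cells 1, 3, 4 and 5, against 0 in Chrm2-negative cells 2 and 6, on the same rescaled scale. The long noncoding gene Pvt1 was at 0 in the 4 Chrm2-positive cells, against 54.8 and 101 TPM in Chrm2-negative cells 2 and 6.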
